A study of Mus musculus with 12 samples.

Results

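The genes described here encode the proteins of the cytosolic ribosome, the proteins of the mitochondrial ribosome and the initiation factors that start translation. They were chosen by symbol: every probe that the annotation pairs with 1 gene symbol beginning with Rpl, Rps, Mrpl, Mrps or Eif, or equal to Fau, leaving out the S6 kinases. That gave 80 probes of 70 genes, out of 8734 probes and 5723 genes with 1 symbol, and 9 probes with several symbols were left out. By symbol, 17 of the 70 genes were counted with the cytosolic ribosome, 34 with the mitochondrial ribosome and 19 with the Eif group. Classes and subunits below follow the symbol alone, and the place of each protein was not checked. Where a gene had several probes, the one with the highest mean intensity stands for it.

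The samples were primary mixed glia of the mouse, kept for 10 to 12 days after isolation and then exposed for 4 hours to IL-1β (rrIL-1β, 10 ng/ml) or to vehicle. The 4 groups were IL-1R1-/- glia with IL-1β, IL-1R1-/- glia with vehicle, wild-type glia with IL-1β and wild-type glia with vehicle. The IL-1R1-/- cells lack the type 1 receptor through which IL-1β signals. Each group has 3 replicates from independent cultures, and the treatments are paired within a culture. The labels used here name no strain, sex or age. Each array was hybridised with radio-labelled (33P) cDNA from total RNA, and a value is the brightness of a cDNA spot.

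Both columns of the third IL-1R1-/- culture turned out to be multiples of other columns. Its vehicle column stood at 1 constant ratio (1.12) to wild-type vehicle replicate 1 in 5959 of 5982 shared probes, and its IL-1β column at 1 ratio (1.67) to IL-1R1-/- vehicle replicate 1 in 6531 of 6584. Any other 2 columns shared 1 ratio in at most 0.122% of probes. A ratio does not show which column of a pair is the original. The columns of the third IL-1R1-/- culture, which is in both pairs, were taken as the copies. The comparisons below therefore use 10 arrays: 2 cultures of IL-1R1-/- glia and 3 of wild-type glia. Array medians ran from 4649 to 60399 units, so all values were quantile normalized and are given as log2 intensity. With so few arrays their number limits the precision. The values of 5713 probes (65.4%) were complete on all 10 arrays and were tested. They include 47 of the 70 genes: 10 cytosolic, 24 mitochondrial and 13 Eif.

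Cytosolic ribosomal proteins are made in matched amounts from some of the most abundant messenger RNAs of a cell, and these messages start with a run of pyrimidines that lets mTOR signalling control their translation. Mitochondrial ribosomal proteins are encoded in the nucleus and imported to build the ribosome that makes the core subunits of the respiratory chain. Initiation factors bring the initiator tRNA and the small ribosomal subunit to the cap of a messenger RNA, and phosphorylation of eIF2 by stress kinases slows this step for most messages. A transcript array reads the abundance of a message and not its translation.

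The pyrimidine run was more frequent at the starts of the cytosolic genes than of the other 2 groups, and a few start regions show what it looks like. Each window below is from the RefSeq table of build GRCm38.p6 and runs 5′ to 3′ on the gene's strand. It covers 30 bases before to 20 bases after an annotated transcript start, with the longest tract in capitals. The rule for a tract was a C followed only by C or T, 8 or more bases in all, on the gene's strand and within 25 bases either side of the start. Fau is at chr19:6057917-6057966 on the plus strand, Rpl35a at chr16:33056452-33056501 on the plus strand, Rps15a at chr7:118116128-118116177 on the minus strand and Rpl38 at chr11:114668550-114668599 on the plus strand. Rpl23, at chr11:97782420-97782469 on the minus strand, is shown as a cytosolic gene whose window holds no tract.
Fau: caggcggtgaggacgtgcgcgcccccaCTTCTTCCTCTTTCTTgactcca
Rpl35a: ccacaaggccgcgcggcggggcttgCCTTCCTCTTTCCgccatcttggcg
Rps15a: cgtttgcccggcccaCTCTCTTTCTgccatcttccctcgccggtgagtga
Rpl38: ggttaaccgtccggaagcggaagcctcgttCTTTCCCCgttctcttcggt
Rpl23: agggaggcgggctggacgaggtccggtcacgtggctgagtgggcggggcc
A tract was found for 9 of the 13 cytosolic genes that the table holds (69.2%), for 3 of 29 mitochondrial genes (10.3%) and for 4 of 18 Eif genes (22.2%). Among all 27025 genes of the table the share was 17.7%. Rpl35a has 3 annotated starts, and the tract is at 1 of them. The Rps15a run in capitals lies wholly before the annotated start, and so outside the message as annotated. A second Rps15a run, of the shortest length the rule allows, begins at the start itself and is in lower case. Runs that lie wholly before the start were counted too, such as the only run of Rpl5. A match is a description of these letters, and its place depends on which start the annotation gives.

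The genes also differed in how bright their spots were. The cytosolic spots had a median percentile of 96.6 among all tested probes, and 8 of 10 lay above the 90th. The mitochondrial spots had a median percentile of 67.7, with 1 of 24 above the 90th (Mrpl19), and the Eif spots 61.0, with 5 of 13. A percentile here ranks spots, whose brightness also depends on the printed DNA. Cross-hybridisation from near-identical copies, which are common for ribosomal proteins, was not tested.

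**Figure D1:**
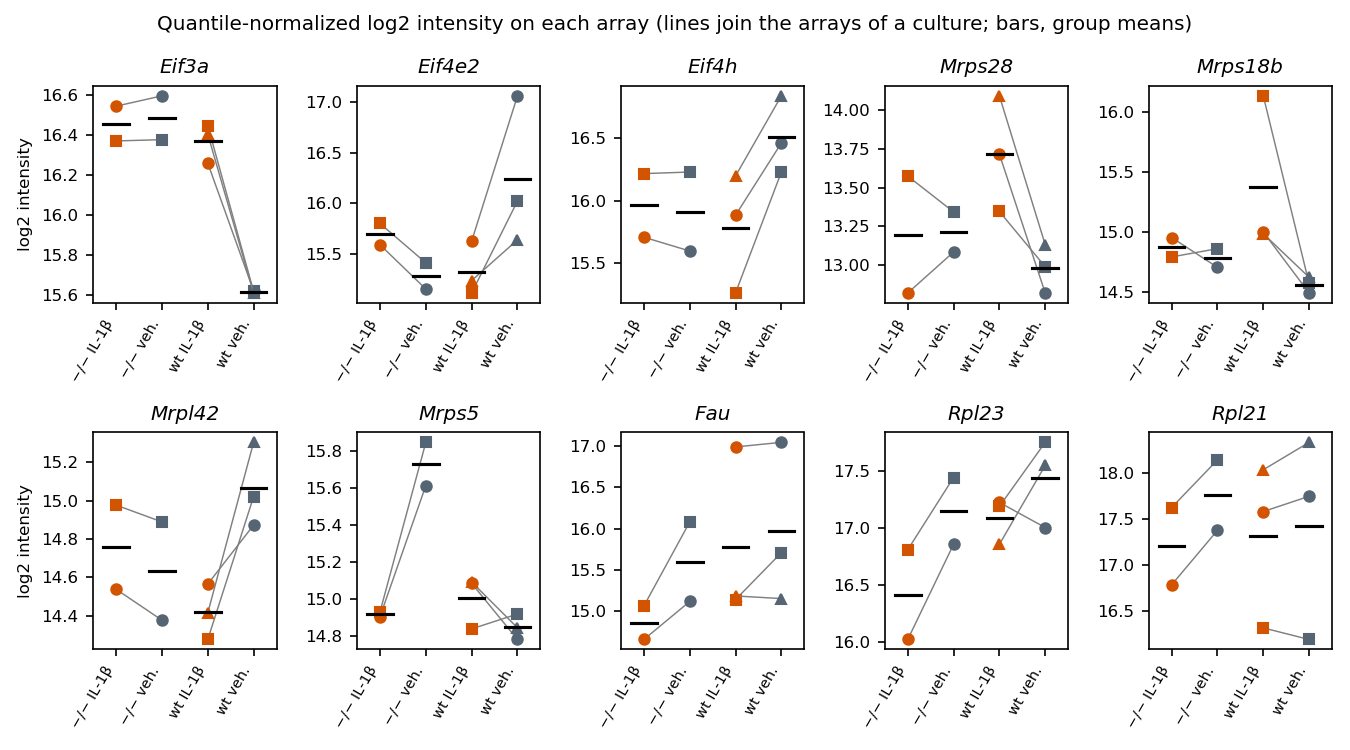
Quantile-normalized log2 intensity (vertical axes, 1 scale per gene) of 10 genes on each of the 10 arrays, grouped as IL-1R1-/- IL-1β, IL-1R1-/- vehicle, wild-type IL-1β and wild-type vehicle; lines join the arrays of a culture, symbols mark its number and bars are group means. In the Eif3a panel the wild-type vehicle points sit together, between 15.61 and 15.62, below all the other arrays.

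The probe for Il1r1 itself read 13.96 and 14.17 in IL-1R1-/- glia with IL-1β and 13.86 and 14.06 in IL-1R1-/- glia with vehicle, against 14.29, 15.03 and 14.01 in wild-type glia with IL-1β and 13.80, 14.07 and 13.73 in wild-type glia with vehicle. The genotypes overlap, and since the position of the probe relative to the deletion is not given, it checks nothing about the labels. The spots of the 5 tested microglial genes ran from percentile 76.2 (Cd68) to 97.3 (Ctss). The 3 astrocyte genes ran from 11 (the glutamate transporter Slc1a2) through 74.6 (Id4) to 94.4 (the enzyme Glul), and the 3 oligodendrocyte genes from 25.7 (Pdgfra) through 77.6 (Olig2) to 89.8 (Mbp). Gfap, the usual astrocyte marker, was not among the tested probes, and the neurofilament genes Nefl and Nefm stood at percentiles 86.5 and 83.3. In bulk RNA of a mixed culture, fewer cells of a type and less RNA per cell cannot be told apart.

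The first comparison asks what IL-1β did to these messages in wild-type glia. It was fitted with limma, with the culture as a block, and p-values were adjusted by Benjamini-Hochberg over all 5713 probes with a threshold of 0.05. Of the 47 genes, 6 passed: Eif3a, Mrps28 and Mrps18b were higher with IL-1β, and Eif4e2, Eif4h and Mrpl42 were lower. Over all probes 6.18% passed, 4.55% higher and 1.63% lower, so 6 of 47 is a somewhat larger share; 14 of the 47 and 1205 of all probes had an unadjusted p under 0.05. No cytosolic ribosomal gene passed. None of the 6 passed once a trend along the order of the probes, described after them, was removed. The count also rests on single cultures: it was 0 without wild-type replicate 1 or 2, against 0.49% and 0.683% of all probes, and 4 without wild-type replicate 3, against 3.4%. Without IL-1R1-/- replicates 1 and 2, which share the estimate of the spread, it was 2 and 1, against 3.87% and 2%.

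Eif3a, the largest subunit of the eIF3 scaffold that holds the small ribosomal subunit, had log2 intensities of 16.26, 16.45 and 16.40 in wild-type glia with IL-1β, against 15.62, 15.62 and 15.61 with vehicle. The groups do not overlap, and the vehicle arrays were nearly equal. The change was 0.76 ± 0.17 (SE) on the log2 scale, 1.69-fold (limma, adjusted p = 0.0279). Of the other tested eIF3 subunits, neither passed, with IL-1β minus vehicle values of 0.19 for Eif3l (adjusted p = 0.603) and -0.23 for Eif3m (adjusted p = 0.52).

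Eif4e2, a cap-binding relative of eIF4E that represses the messages it binds, had 15.62, 15.11 and 15.23 in wild-type glia with IL-1β, against 17.06, 16.02 and 15.64 with vehicle. The vehicle cultures were far apart, the groups are separated only narrowly, and the largest step was in culture 1. The change was -0.92 ± 0.20 (limma, adjusted p = 0.0266), a ratio of 0.53. The other Eif4e2 probes did not show it: their IL-1β minus vehicle values stood at 0.15 and -0.17, with adjusted p of 0.721 and 0.686.

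Eif4h, which helps the helicase eIF4A unwind leader sequences, had 15.88, 15.27 and 16.20 in wild-type glia with IL-1β, against 16.46, 16.23 and 16.83 with vehicle. The groups do not overlap, though by a narrow margin, and each IL-1β array lay well below its own vehicle array. Its change was -0.73 ± 0.17 (limma, adjusted p = 0.0306). Eif4a3, a helicase related to eIF4A that marks exon junctions, stood at -0.31 (adjusted p = 0.434).

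Of the mitochondrial ribosome, Mrps28 of the small subunit had 13.72, 13.35 and 14.09 in wild-type glia with IL-1β, against 12.82, 12.99 and 13.13 with vehicle. The groups do not overlap, but the spot is among the dimmest on the arrays, at percentile 0.2. The change was 0.74 ± 0.19 (limma, adjusted p = 0.0373). Mrps18b, one of several mouse paralogues of a small-subunit protein, had 15.00, 16.13 and 14.98 with IL-1β, against 14.49, 14.57 and 14.62 with vehicle. Culture 2 carried most of its change, which was 0.81 ± 0.22 (limma, adjusted p = 0.0479). A second Mrps18b probe stood at 0.34 (adjusted p = 0.281), and the paralogue Mrps18c at -0.41 (adjusted p = 0.191).

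Mrpl42, of the large subunit, had 14.57, 14.28 and 14.41 in wild-type glia with IL-1β, against 14.87, 15.02 and 15.30 with vehicle. All vehicle arrays were above all IL-1β arrays, and the change was -0.65 ± 0.18 (limma, adjusted p = 0.0484). The other 21 tested mitochondrial genes did not pass, and the changes of all 24 had a median of -0.08. The lowest among them were Mrps14 at -0.54 (adjusted p = 0.132), Mrps18c and the large-subunit genes Mrpl24 at -0.35 and Mrpl17 at -0.34. Mrpl19 and Mrpl32, each with 2 tested probes, stood at -0.33 and -0.55 and at -0.19 and -0.20, with probes of like sign. In the large subunit 9 of 13 changes were below 0, with a median of -0.16, and in the small subunit 5 of 11, with a median of 0.07.

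The calls went with the place of the probe in the deposited order. The order fits 23 plates of 16 rows and 24 columns, a layout inferred from the values and not given by the labels. Over all tested probes of plates 1 to 11 the wild-type change had a median of -0.20, with 3 called higher and 87 lower, and over those of plates 12 to 23 a median of 0.15, with 257 higher and 6 lower. The 22 genes of the first part gave all 3 lower calls and the 25 genes of the second part all 3 higher ones. When the smooth trend over the plates was removed from each array, 0 of 47 genes passed and 10 had an unadjusted p under 0.05, against 0.403% of all probes passing (23 probes, with 642 at an unadjusted p under 0.05). The changes then were 0.40 for Eif3a (adjusted p = 0.284), -0.48 for Eif4e2 (0.35), -0.55 for Eif4h (0.204), 0.52 for Mrps28 (0.21), 0.20 for Mrps18b (0.727) and -0.29 for Mrpl42 (0.429). All 6 kept their direction. Whether the trend arose at printing, hybridisation or reading was not tested.

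**Figure D2:**
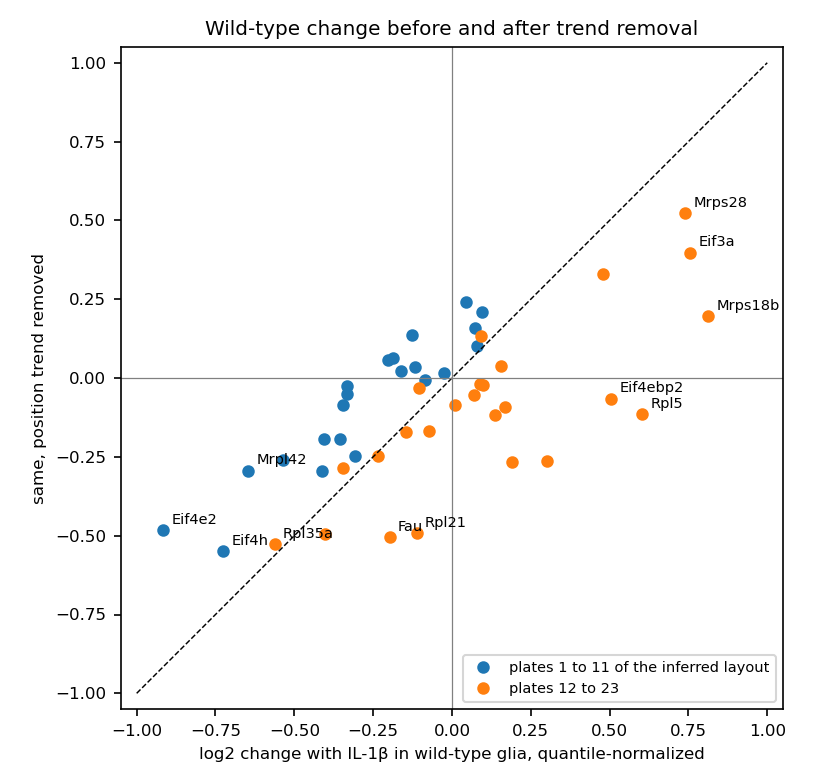
Log2 change with IL-1β in wild-type glia with quantile normalization (horizontal axis) and with the position trend removed as well (vertical axis), 1 point per tested gene, coloured by the part of the inferred plate layout, with a dashed line where both are equal. The 6 called genes keep their side of 0 on both axes, while Rpl5 (0.60 and -0.11) and Eif4ebp2 (0.50 and -0.07) cross it.

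No cytosolic ribosomal gene passed in wild-type glia. Rpl35a, a large-subunit gene mutated in some people with Diamond-Blackfan anaemia, came closest, with 16.52, 16.20 and 17.31 with IL-1β, against 17.25, 16.82 and 17.64 with vehicle. Each IL-1β array was below its own vehicle array, while the groups overlap. Its change was -0.56 ± 0.18 (limma, adjusted p = 0.0775), and -0.53 with the trend removed (adjusted p = 0.21). Rpl8, at the core of the large subunit, had 17.00, 17.04 and 15.89 with IL-1β, against 17.49, 17.38 and 16.27 with vehicle, also lower in every pair and also overlapping. Its change was -0.40 ± 0.18 (limma, adjusted p = 0.214). Rpl5, which binds the p53 regulator Mdm2 when ribosomes are not assembled, stood at 0.60 ± 0.20 (limma, adjusted p = 0.0994), and at -0.11 with the trend removed (adjusted p = 0.814). Fau stood at -0.20 (adjusted p = 0.599). The remaining cytosolic genes lay between -0.34 for Rpl23 and 0.17 for Rpl22l1.

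The cytosolic genes had a median wild-type change of -0.11, against -0.04 over all tested probes, and 6 of 10 were below 0, against 55.5% of all probes. All of them except Rpl7l1 and Rps15a lie in plates 12 to 23. There the probes had a median of 0.15, and 2126 of 3017 were above 0, so the share over the whole array is not a like background. By culture their medians were -0.04, -0.14 and -0.13. With the trend removed the median was -0.20, against 0.00 over all probes, 8 of 10 were below 0, against 49.4%, and the cultures gave -0.17, -0.22 and -0.51. The median was -0.17 without culture 1, -0.13 without culture 2 and -0.02 without culture 3, and with the trend removed -0.38, -0.19 and -0.13. In that version 5 of 10 cytosolic genes were below 0 in every pair, against 15.1% of all probes, and none was above 0 in every pair, against 14.9%. The 572 probes above the 90th percentile of brightness had a median of -0.09 there, with 64.7% below 0, so bright spots in general were also low in that version.

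Among the remaining initiation genes, the eIF2 kinases Eif2ak3 (PERK, of the endoplasmic reticulum stress response) and Eif2ak4 (GCN2, which senses uncharged tRNA) stood at 0.04 (adjusted p = 0.92) and -0.41 (adjusted p = 0.192). Eif2b4, a subunit of the exchange factor for eIF2, stood at -0.33 (adjusted p = 0.4), and Eif2a, an initiator-tRNA binding factor separate from eIF2, at 0.30 (adjusted p = 0.35). Eif4ebp2, a repressor of eIF4E, stood at 0.50 (adjusted p = 0.105), and at -0.07 with the trend removed. Eif1a, of the start-site scanning factors, had 2 tested probes that differ in sign, 0.48 and -0.28 (adjusted p = 0.225 and 0.537), and Eif1ax stood at -0.14 (adjusted p = 0.675).

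Of other translation genes, none passed in wild-type glia. The 4 tested genes of the elongation list (Eef1b2, Eef1g, Tsfm and the kinase Eef2k) had a median of -0.27. The 8 ribosome assembly genes had -0.18, the 7 aminoacyl-tRNA synthetases -0.15 and the 3 genes of the S6 kinase and TOR pathway 0.03. Naca, of the ribosome-bound nascent chain complex, stood at -0.11, and Gspt1, a termination factor, at 0.22. After removal of the trend the medians were -0.25, 0.06, 0.08 and 0.05 in the same order of lists, with Naca at -0.31 and Gspt1 at -0.10, so that the assembly genes, the synthetases and Gspt1 turned in sign. Among cell markers, 2 of 3 tested astrocyte genes were called lower, Glul at -0.84 (adjusted p = 0.0291) and Id4 at -1.60 (adjusted p = 0.0008), and 1 of 4 endothelial and mural genes was called higher, Emcn at 0.84 (adjusted p = 0.0187). None of 5 microglial, 3 oligodendrocyte and 2 neuronal genes passed, the microglial ones with a median of -0.19. With the trend removed only Id4 still passed, at -1.28. The part of these shifts in the ribosomal values was not tested.

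**Figure D3:**
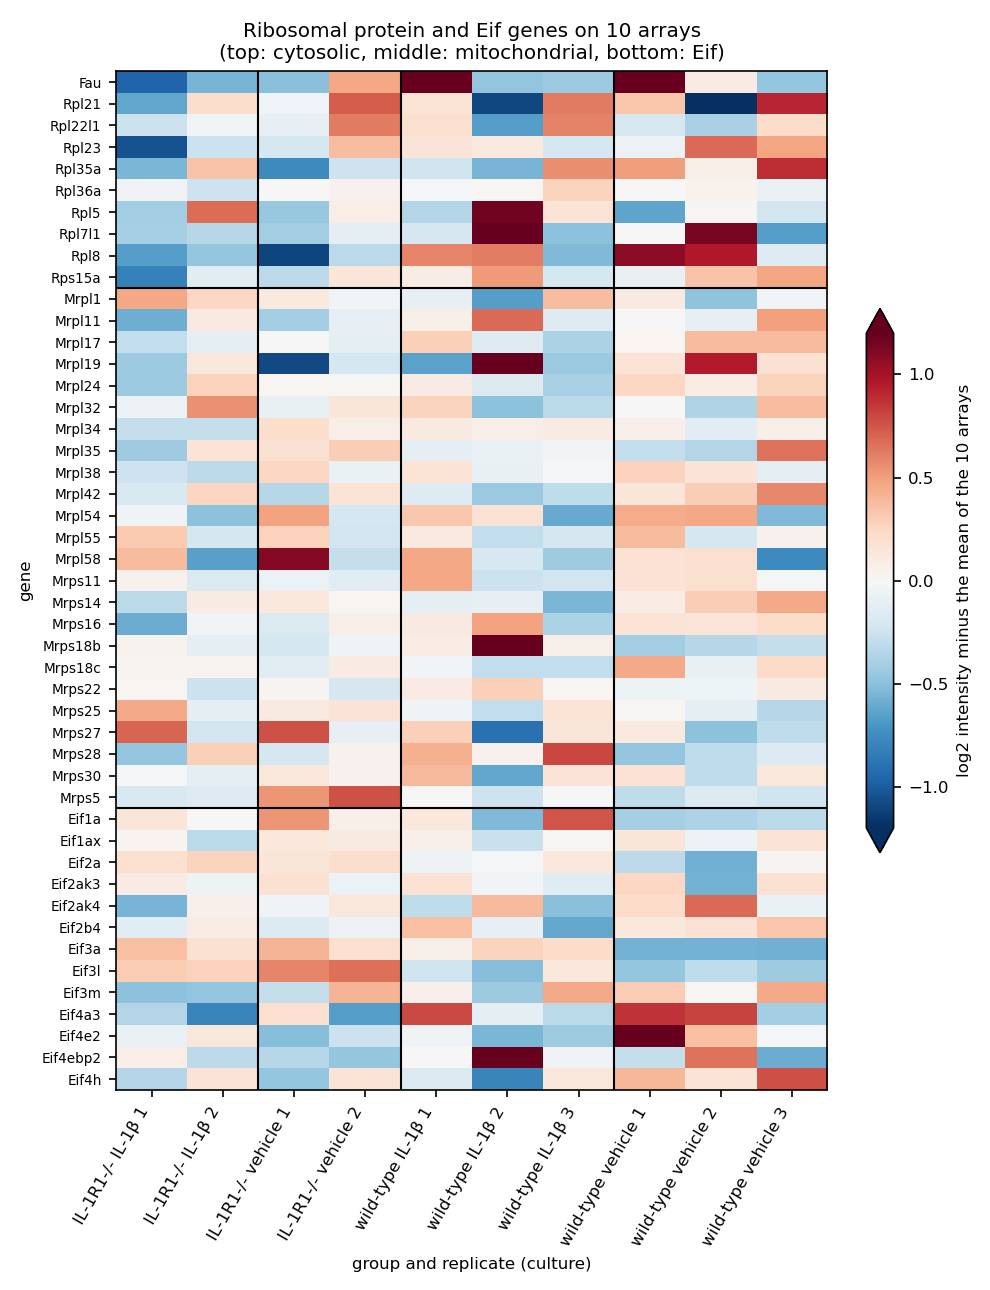
Log2 intensity minus the mean of the 10 arrays (colour, scale on the bar, ends capped) for the 47 tested genes (rows: cytosolic, mitochondrial, Eif) on each array (columns by group and culture). Single arrays differ by more than the treatments in many rows, such as Fau, at 16.99 and 17.05 on both arrays of wild-type culture 1 and between 14.65 and 16.08 on the others.

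Over all 47 genes, 7 were above 0 in all 3 wild-type pairs, against 19.3% of all probes, and 13 were below 0 in all of them, against 20.6%. Taking either direction, 20 of 47 genes kept 1 sign, against 39.9% of all probes. With the trend removed 3 were above and 14 below 0 in all of them, against 14.9% and 15.1%, so that the genes below 0 then exceeded their background share.

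The second comparison asks whether IL-1β had an effect on these messages in glia without its receptor. None of the 47 genes passed, and neither did any of the 5713 probes (0% called by limma), while 6 genes and 434 of all probes had an unadjusted p under 0.05. The scaling mattered: without normalization 4 genes passed (Fau, Mrps5, Rpl21 and Rpl23, all lower), against 2.68% of all probes, and with median centring of each array these and Rpl22l1 passed, against 3.1%. No setting that kept quantile normalization called a gene here.

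Mrps5, of the mitochondrial small subunit, had 14.91 and 14.93 in IL-1R1-/- glia with IL-1β, against 15.62 and 15.85 with vehicle. The groups do not overlap, and the change was -0.81 ± 0.21 (limma, unadjusted p = 0.00191, adjusted p = 0.601). Fau, a fusion of a ubiquitin-like protein and a small-subunit ribosomal protein whose tract is shown above, had 14.65 and 15.06 with IL-1β, against 15.11 and 16.08 with vehicle. Both pairs were lower with IL-1β and the groups do not overlap, and the change was -0.74 ± 0.23 (limma, unadjusted p = 0.00685, adjusted p = 0.601).

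Rpl23, a large-subunit protein that also binds Mdm2, had 16.02 and 16.81 in IL-1R1-/- glia with IL-1β, against 16.86 and 17.44 with vehicle. Rpl21 had 16.79 and 17.63 with IL-1β, against 17.38 and 18.14 with vehicle, and its groups overlap where those of Rpl23 do not. The changes were -0.73 ± 0.24 for Rpl23 and -0.55 ± 0.21 for Rpl21, both with an adjusted p of 0.601 (limma). With the trend removed they were -0.37 and -0.68.

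Among the rest, the lowest changes in IL-1R1-/- glia were those of Eif3m at -0.54 and of Mrpl58, a peptidyl-tRNA hydrolase that frees stalled mitochondrial ribosomes, at -0.54 (limma, adjusted p = 0.62 for both). The highest were those of Mrpl19 at 0.50 (adjusted p = 0.699), Eif4e2 at 0.41 (adjusted p = 0.73) and Rpl35a at 0.40 (adjusted p = 0.699). Each of these 3 was higher with IL-1β in both IL-1R1-/- cultures. The eIF2 kinases stood at -0.04 (Eif2ak3) and -0.29 (Eif2ak4) (adjusted p = 0.975 and 0.786).

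The cytosolic genes had a median change of -0.28 in IL-1R1-/- glia, against 0.01 over all probes, with -0.11 and -0.29 in the 2 cultures, and 6 of 10 were lower in both pairs, against 31.3% of all probes. The median depended on the scaling: -0.17 with the trend removed and -0.68 with median centring, where all probes had -0.05. Without IL-1R1-/- replicate 2 it was -0.11. The bright probes above the 90th percentile had a median of 0.04. The mitochondrial genes had a median of -0.06 and the Eif genes -0.04. Over all 47 genes, 11 were above 0 and 23 below 0 in both pairs, against 31.9% and 31.3% of all probes (63.2% in either direction). With the trend removed 5 were above and 26 below 0, against 27.7% and 29.4% (57.1% in either direction).

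The cytosolic genes with and without a tract were set side by side, with no test. The 5 tested genes with a tract (Fau, Rpl22l1, Rpl35a, Rpl5 and Rps15a) had changes between -0.74 and 0.40 in IL-1R1-/- glia, with a median of -0.39, and between -0.56 and 0.60 in wild-type glia, with a median of -0.12. The 3 without one (Rpl23, Rpl36a and Rpl7l1) lay between -0.73 and -0.11 in IL-1R1-/- glia, with a median of -0.18, and between -0.34 and 0.10 in wild-type glia, with a median of 0.10. The ranges overlap in both genotypes. The run of Rpl5, which gave the highest wild-type value, lies wholly before its annotated start. Rpl21 and Rpl8 were not matched.

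**Figure D4:**
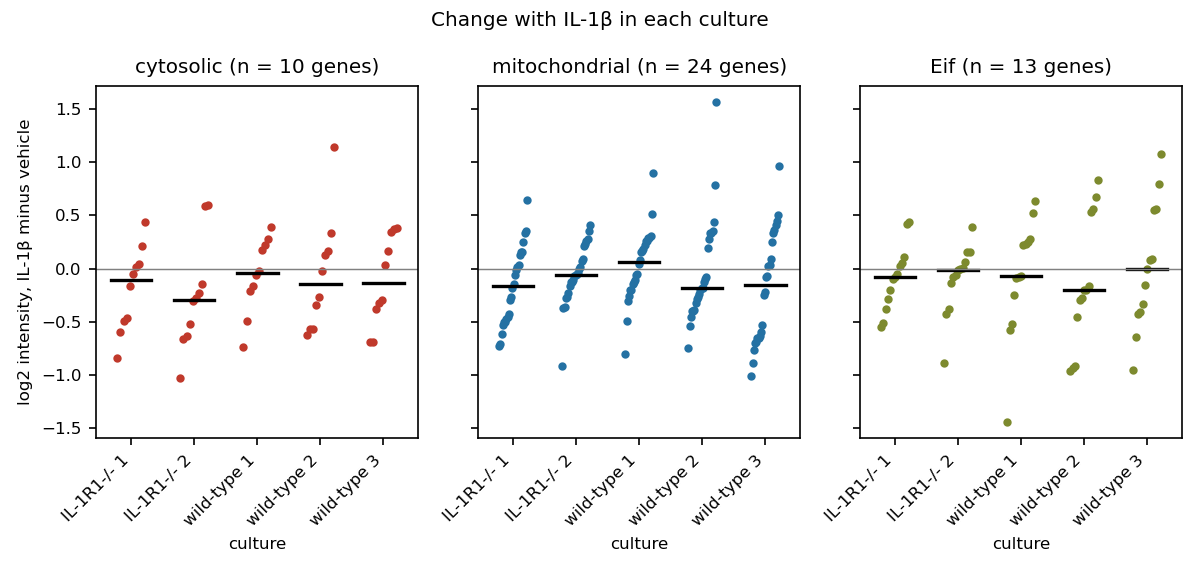
Log2 change with IL-1β (vertical axis) of each tested gene in each culture, IL-1R1-/- cultures left of wild-type cultures, with the cytosolic, mitochondrial and Eif genes apart; points are genes and bars mark the medians. The cytosolic medians are below 0 in all 5 cultures, from -0.29 in IL-1R1-/- culture 2 to -0.04 in wild-type culture 1, while the points of each culture spread on both sides of 0.

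The difference of the responses, IL-1R1-/- minus wild-type, tests directly whether the receptor matters for a gene. None of the 47 genes passed (limma), against 0.158% of all probes, and 8 genes and 804 of all probes had an unadjusted p under 0.05. For Eif3a the IL-1β minus vehicle values of the pairs stood at -0.05 and -0.01 in IL-1R1-/- glia, against 0.64, 0.83 and 0.80 in wild-type glia. The genotypes do not overlap, and the difference was -0.79 ± 0.26 (adjusted p = 0.226). For Eif4e2 the pairs stood at 0.44 and 0.39 in IL-1R1-/- glia, against -1.44, -0.91 and -0.40 in wild-type glia, a difference of 1.33 ± 0.32 (adjusted p = 0.125). For Eif4h they stood at 0.11 and -0.01, against -0.57, -0.96 and -0.64, a difference of 0.77 ± 0.27 (adjusted p = 0.236). After removal of the trend the differences were -0.37 for Eif3a, 0.71 for Eif4e2 and 0.41 for Eif4h (limma, adjusted p = 0.74, 0.602 and 0.74).

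Mrps5 stood at -0.71 and -0.92 in IL-1R1-/- glia, against 0.30, -0.08 and 0.25 in wild-type glia, a difference of -0.97 ± 0.27 (limma, adjusted p = 0.181). Rpl35a stood at 0.21 and 0.59 in IL-1R1-/- glia, against -0.73, -0.63 and -0.33 in wild-type glia, a difference of 0.96 ± 0.28 (limma, adjusted p = 0.188). Both genes have pair changes that do not overlap between the genotypes, and with the trend removed their differences were -0.66 and 0.71 (limma, adjusted p = 0.446 and 0.485). Over the 47 genes 7 were higher and 9 lower in this sense, against 15.5% and 16.9% of all probes. A response called in wild-type glia and not in IL-1R1-/- glia is thus not shown to differ between them for any of the 6 genes. Median centring called 4 genes lower in this difference, against 4.62% of all probes, and no normalization called 3, against 4.2%.

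The genotypes were also compared within each treatment, with the culture as a random block. In vehicle, none of the 47 genes passed (limma), against 0.0175% of all probes, and 7 genes and 489 of all probes had an unadjusted p under 0.05. Eif3a had 16.60 and 16.38 in IL-1R1-/- glia, against 15.62, 15.62 and 15.61 in wild-type glia. Eif3l, another eIF3 subunit, had 16.59 and 16.66 in IL-1R1-/- glia, against 15.54, 15.70 and 15.57 in wild-type glia. Mrps5 had 15.62 and 15.85 in IL-1R1-/- glia, against 14.78, 14.92 and 14.85 in wild-type glia. In all 3 genes the vehicle values of the genotypes are well apart. The differences were 0.87 ± 0.20 (adjusted p = 0.129), 1.02 ± 0.24 (adjusted p = 0.129) and 0.88 ± 0.21 (adjusted p = 0.137), in that order, and median centring called all 3, against 1.79% of all probes.

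Lower in IL-1R1-/- glia with vehicle was Rpl8, at 15.32 and 16.10, against 17.49, 17.38 and 16.27 in wild-type glia. Wild-type culture 3 came close to the IL-1R1-/- values, and the difference of -1.34 ± 0.37 did not pass (limma, adjusted p = 0.248). Rpl35a had 15.99 and 16.50 in IL-1R1-/- glia, against 17.25, 16.82 and 17.64 in wild-type glia, with no overlap, a difference of -0.99 ± 0.33 (limma, adjusted p = 0.369). Mrpl19, by both of its probes, differed by -1.08 and -1.14 (adjusted p = 0.55 and 0.313). Over the 47 genes, 8 were higher and 9 lower without overlap, against 15.3% and 13.1% of all probes. The cytosolic median was -0.31, against -0.03 over all probes, and 6 of 10 were below 0, against 53.5%. With the trend removed it was -0.33, and 9 of 10 were below 0, against 49.7% of all probes. The median was 0.10 with median centring, however, and 0.03 without IL-1R1-/- replicate 1, so its direction is not settled. These vehicle arrays also enter the response of each genotype, so the genotype difference and the responses of Eif3a and Mrps5 are not separate evidence.

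With IL-1β, none of the 47 genes passed (limma), against 0.07% of all probes, and 1 gene and 284 of all probes had an unadjusted p under 0.05. That gene was Rpl23, with 16.02 and 16.81 in IL-1R1-/- glia, against 17.22, 17.19 and 16.86 in wild-type glia, a difference of -0.67 ± 0.30 (unadjusted p = 0.0444, adjusted p = 0.953). Both IL-1R1-/- values lay below the lowest wild-type value, the second by little. Fau differed by -0.92 ± 0.51 (adjusted p = 0.953), with 14.65 and 15.06 in IL-1R1-/- glia, against 16.99, 15.13 and 15.18 in wild-type glia, where culture 1 stands far above the others.

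All 10 cytosolic genes were lower on average in IL-1R1-/- than in wild-type glia with IL-1β, from -0.92 for Fau to -0.02 for Rpl35a, against 51.5% of all probes below 0. Their median was -0.42, or -0.34 with the trend removed, and with median centring -0.41 and 9 of 10. Without normalization all probes were shifted by 1.78 between the genotypes, and the cytosolic median lay -0.39 from that shift. The value leaned on the culture left out, from -0.69 without IL-1R1-/- replicate 2 to -0.27 without IL-1R1-/- replicate 1, and it was -0.15 without the arrays that had been copied. Of the 10, 3 were lower with values that do not overlap between the genotypes, against 9.05% of all probes. None was higher, against 8.93%. With the trend removed 2 of the 10 were lower without overlap, against 10.5%, and none was higher, against 11%. The mitochondrial genes had a median of -0.07 and the Eif genes 0.02.

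The other 23 genes lacked a value in at least 1 culture and were not among the 5713 probes. A fit that kept probes with gaps called 4 of them in wild-type glia, against 11.5% of its 8654 probes. These were Rpl9 and Rps4l, lower, and Mrpl57 and 1 of 2 probes of Mrpl39, higher, with limma adjusted p from 0.0256 to 0.0425. Rpl9, Rps4l and Mrpl57 each had a single wild-type pair there, so their spread is borrowed from other arrays. For Mrpl39 only the brighter probe was counted, at 1.08 and 0.55 in wild-type cultures 2 and 3. With the trend removed it stood at 0.24 and 0.02. The other Mrpl39 probe stood at -0.22 and -0.20 in wild-type cultures 1 and 2 (-0.08 and -0.02 with the trend removed). Gaps were not spread evenly over probes ranked by their brightness in IL-1R1-/- culture 1. Wild-type culture 2 lacked 28.4% of the brightest 5% of these probes and 2.33% of the dimmest 25%. The shares were 21.8% and 16.3% in wild-type culture 1, 11.9% and 19.1% in wild-type culture 3 and 2.28% and 8.07% in IL-1R1-/- culture 2. Of the 7 cytosolic genes with gaps, Rpl9, Rpl13a and Rps4l had wild-type values in culture 3 alone, as did the stalk protein Rplp2, and Rpl17 and Rpl38 had them in cultures 1 and 3. They are named here because their values were seen to be alike. In wild-type culture 3 their IL-1β minus vehicle changes were -1.34 for Rpl9, -1.02 for Rpl13a, -1.55 for Rps4l, -1.09 for Rplp2, -1.21 for Rpl17 and -1.24 for Rpl38. In wild-type culture 1 Rpl17 stood at -0.46 and Rpl38 at 0.14 (-0.13 and 0.03 with the trend removed), so the large drop was not repeated there.

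All 6 of these genes lacked a value in wild-type culture 2, and the probes without one there were low in culture 3 as a set. The 406 probes without a value in wild-type culture 2 had a median change of -0.92 in wild-type culture 3, and 45.8% of them were below -1, against a median of -0.01 and 3.88% over all 7392 probes with a value there. With the trend removed those 406 had a median of -0.35, and the 6 genes lay between -0.95 and -0.62. Of the 406, the 146 among the brightest 10% in culture 3 had a median of -0.82, with 35.6% below -1. The median of the 6 genes was -1.22. With the trend removed these medians were -0.29 and -0.78. The part of the gaps in these values was not tested. In IL-1R1-/- glia the same 6 genes stood between -0.54 and 0.41. The seventh, Rps6, the substrate of S6 kinase, stood at -0.07 and -0.31 in IL-1R1-/- glia, against 0.30 and -0.38 in wild-type cultures 1 and 2.

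Of the Eif genes with gaps, Eif3d, an eIF3 subunit that in human cells can itself bind the cap of some messages, was above 0 in every culture measured. It was chosen after its values were seen. Its pairs stood at 0.65 and 0.93 in IL-1R1-/- glia, against 0.40 and 1.08 in wild-type cultures 1 and 2, and with the trend removed at 0.68 and 0.96, against -0.02 and 0.47. Mrpl27, a bright mitochondrial spot also chosen after its values were seen, stood at -0.90 and -0.45 in IL-1R1-/- glia, against 0.12 and 0.34 in wild-type cultures 2 and 3. Neither passed in wild-type glia in the fit that kept gaps, where each wild-type value rests on 2 cultures.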

How the data were processed

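The deposited table holds linear spot intensity values of 12 arrays, and the software, background correction and normalization behind them are named by none of the sources. Per the labels, TRIzol RNA was treated with DNase and reverse transcribed with radio-labelled nucleotide. The members and lists were chosen with earlier results of these data known. Genes were named through the platform annotation. Values were taken to log2, quantile normalized over 10 arrays and fitted with limma 3.58.1 (R 4.3.3): treatment within each genotype with culture as a block, and genotype within treatment with culture as a random block (correlation 0.388). The series' design text says that treatments were paired and cultures independent, and the 2 arrays of a culture deviated together, with correlations of 0.562 in IL-1R1-/- and 0.468, 0.582 and 0.261 in wild-type cultures. Benjamini-Hochberg adjustment ran over 5713 probes with a threshold of 0.05, and tests were two-sided. The position trend was a loess surface (span 0.2, degree 1) over the row and column of a probe within its plate. It was fitted on each array's deviation from the mean of all arrays. Plates 1 to 11 were pooled for 1 surface and plates 12 to 23 for another. Named genes are those called, those with the lowest unadjusted p per class and direction (up to 5), fixed anchor genes, the 3 moved most by the trend and those with several complete probes; Eif1ax and Eif3m stand beside relatives in the wild-type comparison for their role, and other genes outside the rule are said to be chosen after their values were seen. Scripts were tested on simulated data. Alternatives were other scalings, no block, left-out cultures, all 12 columns, a filter on dim probes, probe means and probes with gaps.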

Additional observations from a re-analysis of the deposited data

How the results depend on the processing

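Of the 6 genes called in wild-type glia with IL-1β, no replicate block left 0 (0.245% of all probes), removal of the position trend left 0 (0.403%), both together left 0 (0.14%), and leaving out the arrays that had been copied together with the copies left 0 (1.21%). All 12 columns gave 2 calls among 34 genes (3.19%) and probes with gaps 10 among 70 (11.5%). Leaving out each culture gave 0 (without wild-type replicate 1) to 4 (without wild-type replicate 3), and 0 throughout with the trend removed. In IL-1R1-/- glia no normalization gave 4 calls and median centring 5, against 0; in the difference of the responses they gave 3 and 4, against 0; and between genotypes in vehicle median centring gave 3, against 0. The cause was not tested. The 6 called changes kept their sign in the alternatives run, but some that were not called did not: Rpl5 turned in 7 of 20, Eif2a in 7 of 20 and Eif4ebp2 in 6 of 19. Eif3a and Eif4e2 missed the threshold in 12 of 19 alternatives each, Eif4h in 13 of 19, Mrps28 in 14 of 19, Mrps18b in 14 of 20 and Mrpl42 in 18 of 20. The median wild-type change of the cytosolic genes ran from -0.38 to 0.06 and that in IL-1R1-/- glia from -0.68 to -0.11. With 2 or 3 cultures per genotype, p-values measure only the spread between these cultures, and dim spots such as Mrps28 are limited by signal over background, which the values do not give.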
